A study of Mus musculus with 6 samples.

Results

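Metallothioneins and zinc transporters were followed in 393P, a mouse lung tumour cell line, after depletion of the kinase MKK4. The group was a list of 31 genes: the 4 metallothioneins, the transcription factor gene Mtf1, 10 zinc exporters of the SLC30 family, 14 zinc importers of the SLC39 family, the magnesium carrier gene Slc41a1 and the copper importer gene Slc31a1. All 31 were measured, among 18193 genes in all, by 53 of the 45037 probe sets tested. For Mt1 and Mt2 every probe set is given, and every other gene is represented by the probe set with the highest mean over the 6 arrays. The levels of 25 genes lay above the bacterial control probe sets that mark background, while 6 (Mt4, Slc30a8, Slc39a2, Slc39a5, Slc39a8 and Slc39a12) had both group means within them.

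The first group was 3 cultures carrying a short hairpin RNA (shRNA) against MKK4, a stress-responsive kinase upstream of JNK and p38 whose gene is Map2k4. The second was 3 cultures carrying a control vector, described in the series as scrambled. Both groups share the 393P background, tumour cells grown out in bulk, in medium with 10% serum, from primary lung tumours of p53R172H∆g/+ K-rasLA1/+ mice, and the labels describe a single shRNA and a single control population, so what the p-values weigh is the spread among cultures from 1 population per group. The labels disagree on whether vectors were delivered by retrovirus or by transfection, and do not say whether the cells were cloned. RNA was hybridised to 1-colour Affymetrix arrays, and levels are intensities in arbitrary units, comparable between arrays but not between probe sets.

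Metallothioneins are small cysteine-rich proteins that bind zinc, copper and cadmium and buffer free zinc in the cell. Zinc leaves the cytosol through SLC30 (ZnT) proteins and enters it through SLC39 (ZIP) proteins. Cytosolic zinc is sensed by MTF1, a zinc finger factor that binds metal response elements and in mouse activates Mt1, Mt2 and Slc30a1. In mouse cells zinc is also known to lower Slc39a10 transcripts through the same factor. Metallothionein genes further respond to glucocorticoids and to oxidative stress.

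The promoters of the 3 genes among these that rose and are classical MTF1 targets are shown with that of Mt3, which did not pass the test, because all 4 can be read for the core of the metal response element. Each window runs from 250 bases before to 50 bases after the gene's start in RefSeq (GRCm38.p6). Mt1 is the window chr8:94178839-94179138, Mt2 chr8:94172368-94172667, Slc30a1 chr1:191906531-191906830 and Mt3 chr8:94152357-94152656, all on the plus strand. Capitals mark every match of TGCACNC or TGCGCNC, the core spelled with either base at its variable position and searched on both strands.
Mt1: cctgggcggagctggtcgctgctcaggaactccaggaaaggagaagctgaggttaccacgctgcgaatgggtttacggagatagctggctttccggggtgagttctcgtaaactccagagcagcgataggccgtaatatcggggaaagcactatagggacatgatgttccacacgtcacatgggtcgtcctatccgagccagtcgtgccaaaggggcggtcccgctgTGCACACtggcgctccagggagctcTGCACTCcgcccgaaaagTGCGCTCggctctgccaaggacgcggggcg
Mt2: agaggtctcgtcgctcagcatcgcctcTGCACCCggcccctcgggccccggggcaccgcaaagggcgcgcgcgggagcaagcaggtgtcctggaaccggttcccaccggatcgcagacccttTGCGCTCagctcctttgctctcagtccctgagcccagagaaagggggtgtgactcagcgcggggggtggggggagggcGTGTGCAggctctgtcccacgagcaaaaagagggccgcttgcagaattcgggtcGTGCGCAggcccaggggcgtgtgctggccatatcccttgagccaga
Slc30a1: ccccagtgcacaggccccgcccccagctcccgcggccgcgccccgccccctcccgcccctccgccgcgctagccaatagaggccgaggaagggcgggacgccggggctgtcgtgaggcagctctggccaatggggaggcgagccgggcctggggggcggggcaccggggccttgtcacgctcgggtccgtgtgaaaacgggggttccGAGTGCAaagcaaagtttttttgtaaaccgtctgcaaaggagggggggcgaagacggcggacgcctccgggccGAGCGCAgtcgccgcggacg
Mt3: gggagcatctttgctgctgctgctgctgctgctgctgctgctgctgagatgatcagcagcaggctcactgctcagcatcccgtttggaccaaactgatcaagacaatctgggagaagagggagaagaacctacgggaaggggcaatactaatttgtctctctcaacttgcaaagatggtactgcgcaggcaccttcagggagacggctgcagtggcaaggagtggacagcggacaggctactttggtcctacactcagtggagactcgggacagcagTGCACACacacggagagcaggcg

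The Mt2 window held 4 matches, the Mt1 window 3, the Slc30a1 window 2 and the Mt3 window 1. The Mt1 matches began at -23, 2 and 20 bases from its RefSeq start. Sequence beyond the windows was not searched, so the counts are not those of whole promoters. Of 32851 promoter windows of this length, 25.7% held at least 1 match, 7.11% at least 2, 1.97% at least 3 and 0.517% at least 4. Windows were given for 27 of the 31 genes, 32 windows in all, and 17 of these held a match. Neither of the 2 windows of Slc39a10, the gene that fell, held a match. Matches were not particular to genes that rose: Slc30a4 and Slc30a10, which did not pass the test, held 3 each, of which 2 in Slc30a10 overlap on opposite strands. A match is a description of the letters, and its absence says only that they are not in the window. Slc39a4, Slc39a6, Slc39a14 and Slc30a8 had no window.

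The targeted transcript was lower in every shRNA culture. Map2k4 gave 240, 295 and 287 units in the shRNA cultures A, B and C, against 700, 638 and 597 in the control cultures. Its log2 change was -1.21 with an SE of 0.079, a 2.31-fold fall (limma adjusted p = 0.000127). For Map2k4 the two-sided p by exact permutation of the arrays was 0.1, which is as low as 3 against 3 can reach, and the same holds for every gene below whose groups do not overlap. All log2 changes are shRNA minus control on the log2(intensity + 16) scale, which understates changes of dim genes.

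The zinc buffering genes Mt1 and Mt2 rose, with the zinc exporter Slc30a1 and the importer Slc39a4, while the importer Slc39a10 fell. Across the 31 genes 4 were called higher and 1 lower with limma and Benjamini-Hochberg adjustment over all genes at 0.05, and 26 did not pass. This is 16.1% of the group called, where 11.8% of all genes were (6.37% higher and 5.39% lower), so the share is near that of genes at large. The median log2 change was 0.04 over the 31 genes and -0.01 over all genes. Groups did not overlap in 12 of the 31 (38.7%), against 28.5% of all genes. In bulk RNA from cultures, a change in every cell and a change in part of the cells cannot be told apart.

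**Figure D1:**
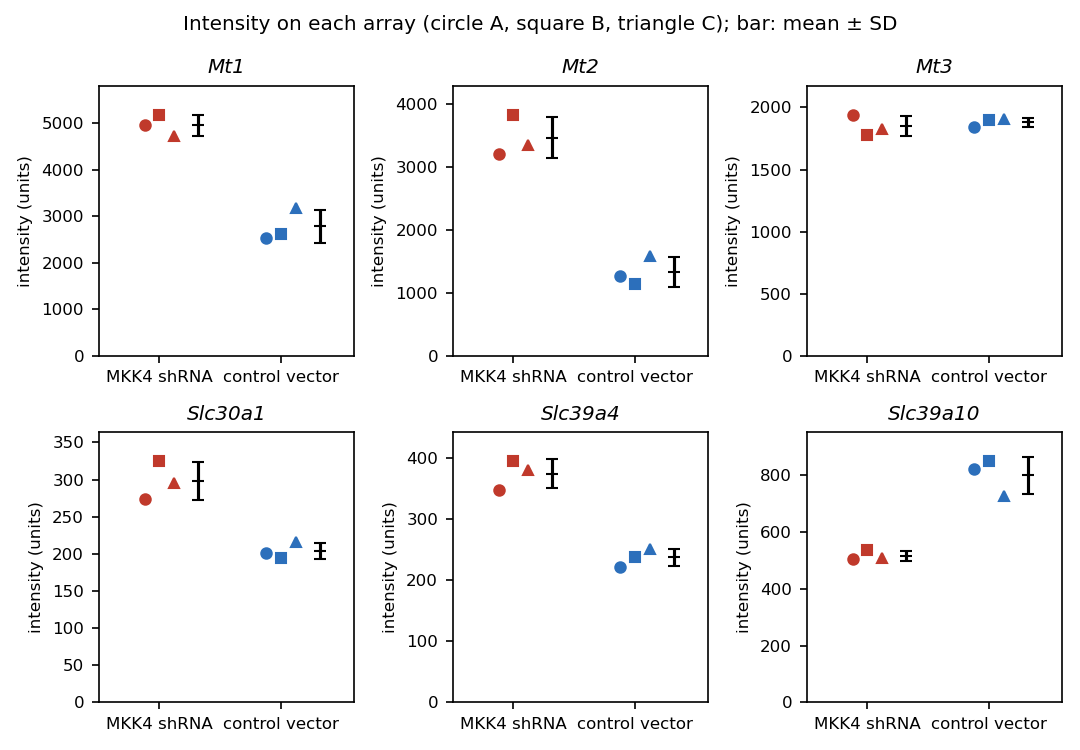
Intensity in units (vertical axes, linear from 0) of 6 genes on each array, MKK4 shRNA at left and control vector at right; circles, squares and triangles are cultures A, B and C, and bars are mean ± SD of 3. The groups stand apart in Mt1, Mt2, Slc30a1, Slc39a4 and Slc39a10, which is lower with the shRNA, and overlap in Mt3.

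Mt2, one of the ubiquitous metallothioneins, gave 3205, 3825 and 3355 units in the shRNA cultures A, B and C, against 1267, 1137 and 1593 in the control cultures. Every shRNA culture lay above every control culture, and the lowest shRNA value was still far from the highest control value, the control culture C. The means were 3462 ± 324 units with the shRNA and 1332 ± 235 with the control vector (SD, n = 3 each). This was a rise of 1.36 on the log2 scale with an SE of 0.117, or 2.57-fold (limma adjusted p = 0.000476). It is the largest change among the 31 genes, and a single probe set carries it.

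Mt1, its neighbour on chromosome 8 and the other ubiquitous metallothionein, has 2 probe sets. The brighter gave 4955, 5175 and 4732 units in the shRNA cultures A, B and C, against 2543, 2623 and 3181 in the control cultures. Here too the groups were separate, and control culture C was again the highest of the controls. Mt1 rose by 0.81 on the log2 scale with an SE of 0.084, or 1.75-fold (limma adjusted p = 0.000971). Of the 3 Mt1 and Mt2 probe sets 2 were called higher over all probe sets, where 3.57% of all probe sets were. The dimmer Mt1 probe set read 43.3, 55.7 and 37.3 units in the shRNA cultures and 41.3, 39.7 and 37.7 in the control cultures. These values overlap and lie close to the background controls, whose highest value was 26.45 to 39.47 units per array, and its log2 change of 0.14 did not pass the test (limma adjusted p over all probe sets = 0.675). The brighter probe set carries the suffix of sets that can match several transcripts. With such sets left out the Mt1 call therefore rests on the dim one and is lost (0.14, adjusted p = 0.611), and with its probe sets averaged the rise is 0.47 and still called (adjusted p = 0.00775).

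The rise was larger in Mt2 than in Mt1. The log2 difference of Mt2 minus Mt1 within each array was -0.62, -0.45 and -0.48 in the shRNA cultures A, B and C, against -1.005, -1.21 and -0.98 in the control cultures. It was higher in each shRNA culture than in any control culture, by 0.55 on average. The exact two-sided permutation p was 0.1, the smallest possible, so a difference between the genes cannot be called at 0.05 by this test.

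The other metallothioneins did not pass the test. Mt3, known mainly from the brain, gave 1940, 1779 and 1830 units in the shRNA cultures A, B and C, against 1841, 1897 and 1908 in the control cultures, and the groups overlapped. Its log2 change was -0.04, with a 95% interval of -0.17 to 0.09, which leaves out rises of the size seen in Mt1 and Mt2 (limma adjusted p = 0.74). Mt4, known from stratified epithelia, stayed at 8.4 to 21.1 units with the shRNA and 10.1 to 13.4 with the control vector, within background. The 4 genes lie next to each other on chromosome 8 among the measured genes, in the order Mt4, Mt3, Mt2 and Mt1. Of the 5 measured genes on either side of them, 1 was called, where 11.8% of all genes were. This was Herpud1, a gene of the endoplasmic reticulum stress response, which rose by 0.53 (limma adjusted p = 0.00025). It was named here after its value was seen. The median log2 change over the genes of chromosome 8 was -0.02.

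Mtf1, which encodes the metal sensor itself, did not pass the test. Its kept probe set gave 492, 526 and 481 units in the shRNA cultures A, B and C, against 480, 453 and 489.5 in the control cultures. The groups overlapped, with a log2 change of 0.05 and a 95% interval of -0.07 to 0.18 (limma adjusted p = 0.645). Its other 4 probe sets gave log2 changes of -0.19 to -0.02, none called, and 2 of them lay within background.

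**Figure D2:**
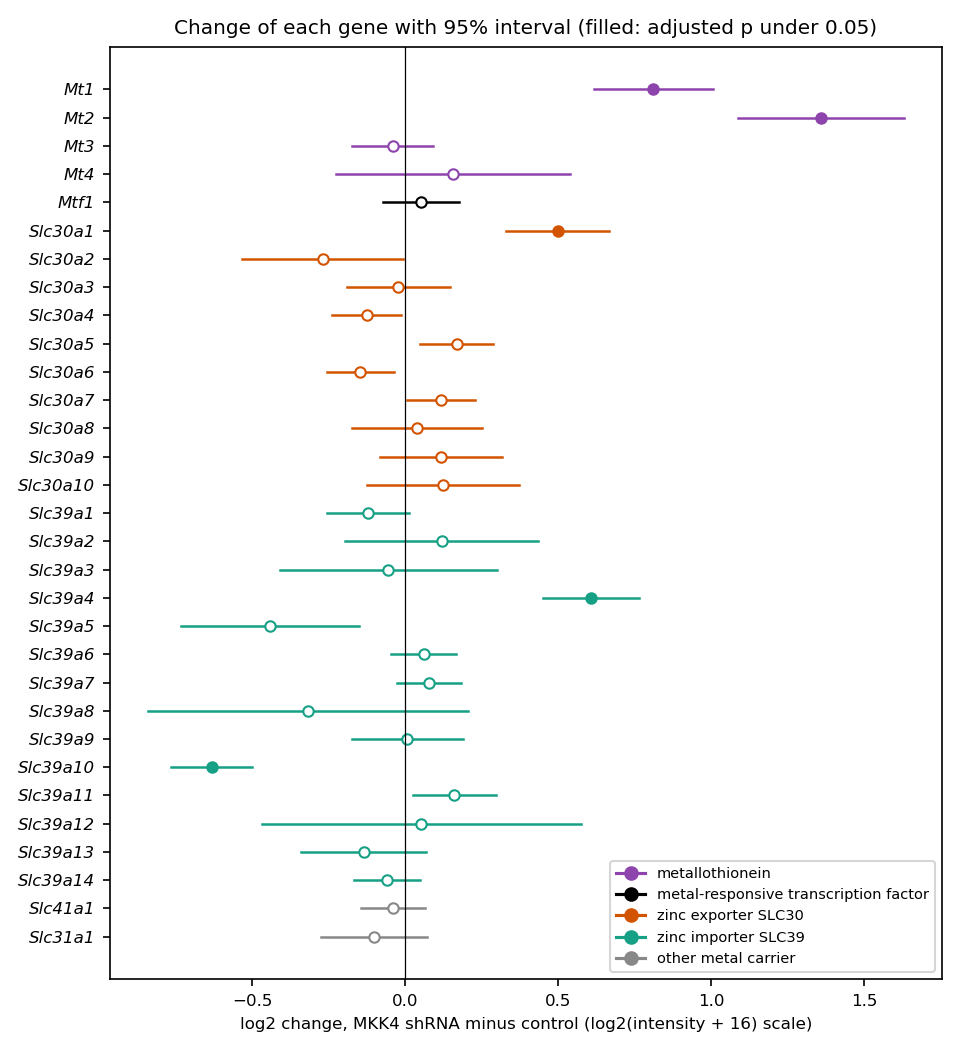
Log2 change, MKK4 shRNA minus control, of each of the 31 genes (rows) with its 95% interval from limma; filled points have an adjusted p under 0.05 and colours give the role. Mt1, Mt2, Slc30a1 and Slc39a4 lie to the right of 0 and Slc39a10 to the left, and the other 26 points are open.

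Among the zinc exporters 1 of 10 rose and none fell, which is 10% called where 11.8% of all genes were. Slc30a1 encodes ZnT1, which moves zinc out of the cell across the plasma membrane. It gave 274, 324 and 296 units in the shRNA cultures A, B and C, against 201, 195 and 216 in the control cultures, without overlap. The rise was 0.50 on the log2 scale with an SE of 0.073, or 1.41-fold (limma adjusted p = 0.00424). The rise rests on 1 of its 2 probe sets. The other, of similar brightness, gave 221, 202 and 158 units with the shRNA against 194, 188 and 205 with the control vector, and overlapped (log2 change -0.03, 95% interval -0.30 to 0.24, adjusted p over all probe sets = 0.931). With both averaged the Slc30a1 change is 0.23 and is not called (adjusted p = 0.0931).

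The remaining exporters gave log2 changes from -0.27 to 0.17. Slc30a5 and Slc30a6, whose proteins pair to load zinc into the early secretory pathway, had opposite signs. Slc30a5 read 1365, 1393 and 1343 units in the shRNA cultures, against 1292, 1125 and 1200 in the control cultures (0.17, limma adjusted p = 0.079). Slc30a6 read 1007, 1159 and 1175 units with the shRNA, against 1191, 1227 and 1252 with the control vector (-0.15, limma adjusted p = 0.0968). Neither group of values overlapped with its control, but neither gene passed. With the fit rerun on the brighter genes alone, both pass (limma adjusted p = 0.0301 for Slc30a5 and 0.0489 for Slc30a6). That setting changes the prior variance as well as the number of genes tested.

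Slc30a7, a further exporter of the Golgi, gave 0.12 on its kept probe set and -0.12 on the other, of similar brightness, and neither passed (adjusted p = 0.185 over genes and 0.264 over probe sets). Slc30a4, an exporter into endosomal vesicles, gave -0.13 (limma adjusted p = 0.156), and Slc30a2, known from secretory vesicles of the mammary gland, -0.27 from 92.5 ± 2.01 units with the shRNA and 115 ± 17.2 with the control vector (SD, n = 3 each; adjusted p = 0.197). Slc30a3, the exporter of synaptic vesicles (-0.02), Slc30a9, linked to mitochondrial zinc (0.12), and Slc30a10, a manganese exporter (0.12), overlapped between the groups. Slc30a8, the exporter of insulin granules, read 1 to 2.8 units on every array, at the floor of the scale.

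Among the zinc importers 1 of 14 rose and 1 fell, which is 14.3% called where 11.8% of all genes were. Slc39a10 encodes ZIP10, an importer of the plasma membrane. It gave 503, 535 and 508 units in the shRNA cultures A, B and C, against 823, 848 and 725 in the control cultures. All shRNA values were lower, close together, and control culture C, the highest control for both metallothioneins, was the lowest for this gene. Slc39a10 fell by 0.63 on the log2 scale with an SE of 0.058, or 1.55-fold (limma adjusted p = 0.00056). Its dimmer probe set gave 163, 205 and 172 units with the shRNA, against 236, 248 and 207 with the control vector, again without overlap. The change there was -0.35 and did not pass over all probe sets (adjusted p = 0.0904), and with both averaged the fall is 0.49 and is called (adjusted p = 0.00514).

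Slc39a4 encodes ZIP4, the importer of zinc uptake in the intestine, mutated in the human zinc deficiency acrodermatitis enteropathica, and its transcript is known to be lowered by zinc in the mouse intestine. It gave 348, 395 and 381 units in the shRNA cultures A, B and C, against 223, 238 and 252 in the control cultures. The groups were separate, and Slc39a4 rose by 0.61 on the log2 scale with an SE of 0.067, or 1.52-fold (limma adjusted p = 0.00128). It has 1 probe set. The call held in all 17 alternative settings, with log2 changes of 0.53 to 0.65.

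The other importers showed smaller differences. Slc39a6, whose protein ZIP6 is known to pair with ZIP10, did not move with Slc39a10: it read 679, 728 and 752 units with the shRNA, against 713, 677 and 642 with the control vector (0.06, 95% interval -0.04 to 0.17, limma adjusted p = 0.495). Slc39a11 gave 399, 425 and 380 units with the shRNA, against 348, 347 and 364 with the control vector, without overlap (0.16, limma adjusted p = 0.131). Slc39a1, an importer of the plasma membrane, gave -0.12 (limma adjusted p = 0.257). Without control culture A, Slc39a1 passes at -0.19 (adjusted p = 0.0275).

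Log2 changes were 0.08 for Slc39a7, which releases zinc from the endoplasmic reticulum, 0.01 for the Golgi carrier gene Slc39a9 and -0.14 for Slc39a13, an importer known from connective tissue. They were -0.06 for Slc39a14, which also carries iron and manganese, and -0.06 for Slc39a3, and none of these 5 was called. Slc39a2, Slc39a5, Slc39a8 and Slc39a12 lay within background. A second Slc39a8 probe set read 22.7, 23.6 and 22.2 units with the shRNA against 10.0, 10.8 and 10.1 with the control vector and passed over all probe sets at 0.56 (adjusted p = 0.0126), while the kept one gave -0.32. Both lie within background, where an intensity says little. Slc39a5 gave -0.44 (limma adjusted p = 0.0616), and passes without shRNA culture A at -0.55 (adjusted p = 0.0331), also at background levels.

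**Figure D3:**
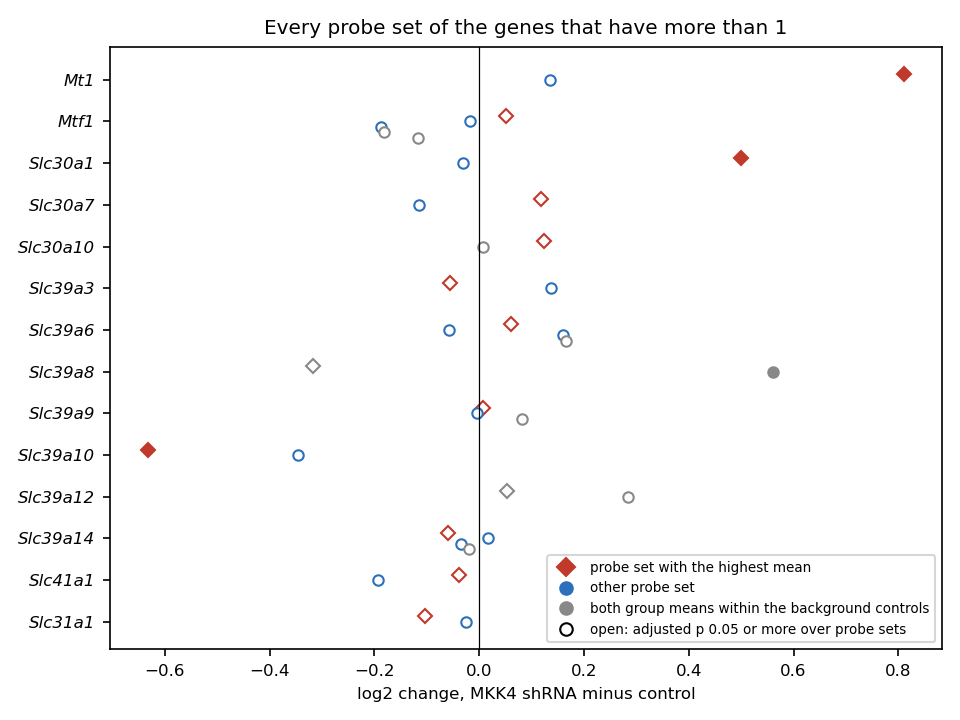
Log2 change, MKK4 shRNA minus control, of every probe set of the genes that have more than 1; diamonds are the probe sets with the highest mean, grey marks both group means within the background controls and open symbols an adjusted p of 0.05 or more over all probe sets. The second probe sets of Mt1 and Slc30a1 lie near 0, at 0.14 and -0.03, and that of Slc39a10 lies on the side of its brighter one, at -0.35.

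Neither carrier of another metal passed the test. Slc31a1, the high-affinity copper importer, gave 281, 342 and 318 units in the shRNA cultures A, B and C, against 323, 360 and 318 in the control cultures, which overlap (-0.10, limma adjusted p = 0.483). Slc41a1 gave -0.04 (adjusted p = 0.686). Over the 20 genes that lay above background and were not called, log2 changes ran from -0.27 to 0.17, with 95% intervals within -0.53 to 0.37. Of these 20, 6 had an unadjusted p under 0.05 in limma. The share of all genes at that level was not counted, so this number shows nothing particular to the 20.

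Within the groups, the same arrays were often at the extremes of the 5 called genes. How often these arrays were at the extremes over all genes was not counted. On the normalized scale control culture C was the highest control for Mt1, Mt2, Slc30a1 and Slc39a4 and the lowest for Slc39a10. Culture B was the highest shRNA culture for the 4 genes that rose. The gap between the groups was wider than the range within either group for each of the 5 genes. For Mt2 the gap was 1.00, against ranges of 0.20 with the shRNA and 0.49 with the control vector. Calling favours genes with such gaps, so this describes the 5 genes and adds no support to their calls. Without control culture C the 5 genes were all still called.

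**Figure D4:**
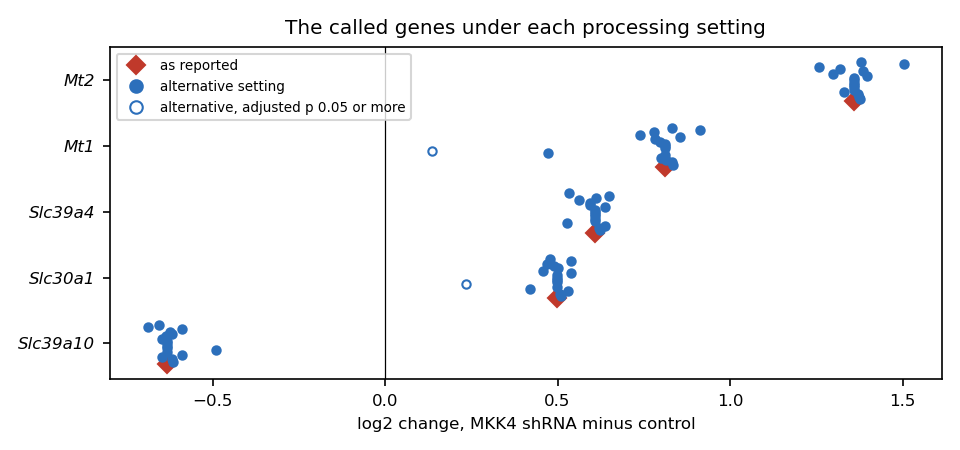
Log2 change, MKK4 shRNA minus control, of the 5 called genes as reported (diamonds) and under each of 17 alternative settings (circles; open where the adjusted p was 0.05 or more). The open circles are Mt1 with its multi-transcript probe set left out, at 0.14, and Slc30a1 with its probe sets averaged, at 0.23.

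Other reported target genes of MTF1 did not move as a block. Of 8 such genes beyond the 31, 1 rose, 1 fell and 6 did not pass (25% called, where 11.8% of all genes were), with a median log2 change of -0.14. This list and those that follow were chosen with earlier results of these data known, so their shares called cannot show enrichment. Without genes below the median gene 2630 genes were called, against 2139 over all genes, so brighter genes give a higher share than 11.8%. Ndrg1, a gene also induced by hypoxia, read 2387, 2379 and 2360 units with the shRNA, against 1975, 1766 and 1905 with the control vector, a rise of 0.32 (limma adjusted p = 0.00311). Csrp1, which encodes a LIM domain protein, fell by 0.18 (adjusted p = 0.0217), and lost its call in 9 of 17 alternative settings. Gclc, the catalytic subunit gene of glutathione synthesis, gave -0.10 (adjusted p = 0.499), and Slc40a1, the iron exporter gene, -0.20 (adjusted p = 0.215).

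Genes of copper and iron handling changed in both directions. Of 13 measured, 3 rose and 2 fell, which is 38.5% called where 11.8% of all genes were, with a median log2 change of 0.04. Commd1, a gene of copper export, read 924, 960 and 867 units with the shRNA, against 701, 608 and 701 with the control vector, a rise of 0.43 (limma adjusted p = 0.0068). Atp7a, which encodes a copper-exporting ATPase, rose by 0.24 (adjusted p = 0.0397), and Sod1, the copper and zinc superoxide dismutase gene, named after its value was seen, by 0.15 (0.019). Ccs, the copper chaperone gene of that enzyme, fell by 0.25 (adjusted p = 0.0175) and Slc31a2, a relative of the copper importer gene, by 0.31 (0.0243). The calls of Atp7a, Ccs and Slc31a2 were lost in 8 or more of 17 alternative settings.

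Glucocorticoid-responsive genes, a class to which Mt1 and Mt2 belong, were called in 5 of 10 cases (50%, where 11.8% of all genes were), 2 higher and 3 lower, with a median log2 change of -0.05. Tsc22d3, which encodes the leucine zipper protein GILZ, read 625, 657 and 723 units with the shRNA, against 431, 408 and 424 with the control vector, a rise of 0.63 (limma adjusted p = 0.000566). Fkbp5, the gene of a receptor co-chaperone, rose by 0.27 (adjusted p = 0.00515), but by 0.07 and not called with its probe sets averaged (0.709). The phosphatase gene Dusp1 fell by 0.57 (adjusted p = 8.5e-05) and the kinase gene Sgk1 by 0.21 (0.0269), the Sgk1 call being lost in 9 of 17 alternative settings. Klf9, a transcription factor gene named after its value was seen, fell by 0.21 (adjusted p = 0.00993). The glucocorticoid receptor gene Nr3c1 gave -0.01 (adjusted p = 0.951).

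Genes of oxidative and heavy metal stress were called in 4 of 10 cases (40%, where 11.8% of all genes were), 2 higher and 2 lower, with a median log2 change of 0.01. Hspa1b, a heat shock protein gene, rose by 0.38 (limma adjusted p = 0.00698), and the quinone reductase gene Nqo1 by 0.54, from dim levels of 75.3 ± 8.18 units with the shRNA and 46.9 ± 9.10 with the control vector (SD, n = 3 each; adjusted p = 0.0465). Srxn1, the sulfiredoxin gene, fell by 0.34 (adjusted p = 0.00796) and Gclm, the regulatory subunit gene of glutathione synthesis, by 0.14 (0.041). Hmox1, the haem oxygenase gene that cadmium strongly induces, read 202, 207 and 202 units with the shRNA, against 199, 196 and 215 with the control vector, and overlapped (-0.01, adjusted p = 0.968). The calls of Nqo1 and Gclm were lost in 9 or more of the alternative settings. The Srxn1 call was lost with its probe sets averaged (-0.25, adjusted p = 0.138) and without probe sets ending in _x_at or _s_at (-0.20, adjusted p = 0.0707).

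**Figure D5:**
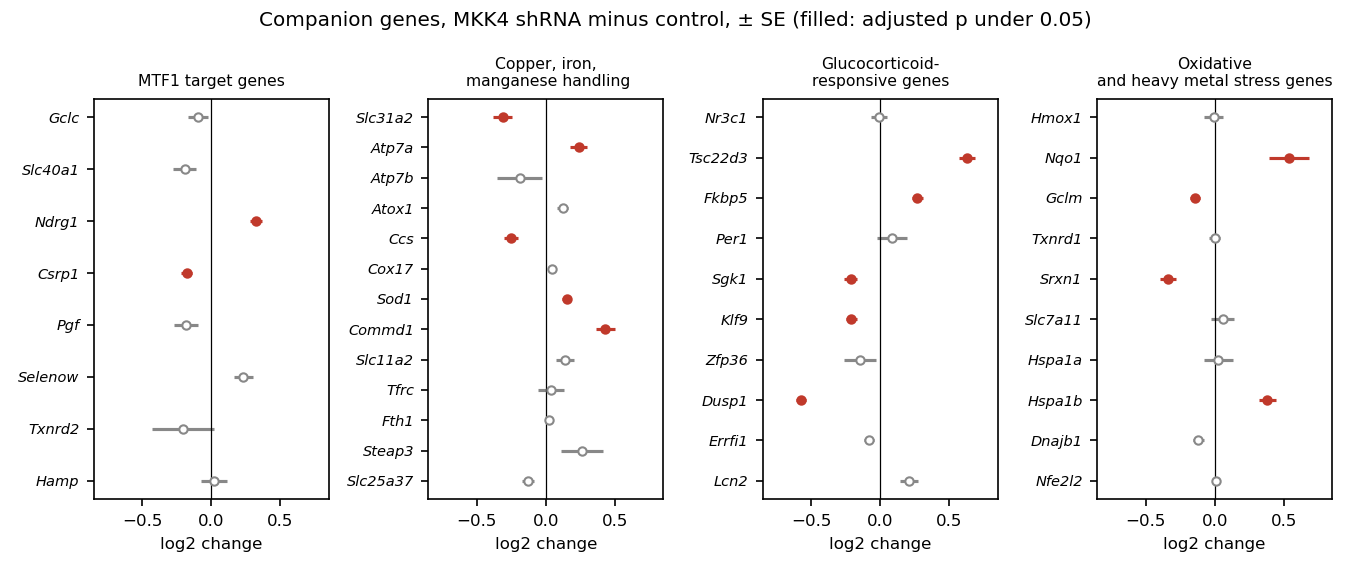
Log2 change, MKK4 shRNA minus control, with its SE for the genes of 4 lists linked to metal handling and metallothionein induction; filled points have an adjusted p under 0.05. Points lie on both sides of 0 in each list, with Tsc22d3 at 0.63 and Dusp1 at -0.57 among the glucocorticoid-responsive genes.

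The cultures had the markers of an epithelial line. All 7 epithelial markers lay above background in both groups, summing to 46572 to 47642 units per array with the shRNA and 47199 to 47738 with the control vector. Of these, 1 rose and 3 fell, which is 57.1% called where 11.8% of all genes were. The keratin gene Krt19 rose by 0.23 (limma adjusted p = 0.0268), while the adhesion gene Epcam fell by 0.35 (0.000874), the cadherin gene Cdh1 by 0.14 (0.0182) and the claudin gene Cldn7 by 0.13 (0.0272), all 4 named after their values were seen. Fibroblast markers summed to 449 to 524 units with the shRNA and 466 to 516 with the control vector over 7 genes, leukocyte markers to 829 to 1049 and 915 to 1006 over 6, and endothelial markers to 516 to 659 and 570 to 710 over 5, and none of these was called. Above background in both groups were 5 of the 7 fibroblast markers and 3 of the 5 endothelial markers, and of the 6 leukocyte markers 3 were with the shRNA and 2 with the control vector. The brightest were Csf1r, a macrophage receptor gene, at 725 units with the shRNA and 771 with the control vector, the endothelial receptor gene Kdr at 345 and 394, and the collagen gene Col1a2 at 188 and 205. Cd68, a macrophage gene, averaged 138 units with the shRNA and 146 with the control vector, and the endothelial gene Cdh5 124 and 109. Some other defining markers were dim: the pan-leukocyte gene Ptprc averaged 41.6 units with the shRNA and 33.2 with the control vector. The T cell gene Cd3e averaged 1.09 and 2.65, the endothelial gene Pecam1 27.9 and 28.3, and the fibroblast gene Dcn 14.4 and 19.6. Each sum adds unlike probe sets, so it serves to compare arrays and does not measure a cell type. Csf1r made up most of the leukocyte sum. What part any of these markers had in the results was not tested. Pairs of arrays had correlations of 0.991 to 0.996 across genes, which are not independent replicates.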

How the data were processed

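Each of 6 cultures gave RNA for 1 biotin-labelled sample on its own Affymetrix array, read in 1 colour, per the labels' protocols. The authors deposited linear intensities, one for every probe set; the sources used here do not give their probe summary, background correction or normalization. Array medians were 92 to 95.76 units. The number of arrays limits the precision.

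Values were taken to log2(intensity + 16) from the deposited intensities and quantile-normalized (limma 3.58.1, R 4.3.3). Tests left aside 64 control probe sets. By the platform annotation 34945 probe sets match 1 gene and 932 several; for each of 18193 genes the probe set with the highest mean was kept. limma's lmFit and eBayes, with the prior variance trended on intensity, compared the groups, with Benjamini-Hochberg adjustment over all genes, or over 45037 probe sets where every probe set was fitted. Means and SDs are of deposited intensities; overlap was judged on normalized values. Fits were tested on simulated data. Background is the highest of 3 bacterial trpnX control probe sets.

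Members and lists were chosen with earlier results of these data known. Named were Map2k4, every Mt1 and Mt2 probe set, every called member, the others by role, and up to 4 called genes of each of 4 companion lists. Alternatives were other normalizations, pseudocounts of 1 and 64, dropping dimmer genes, other probe set rules, no trend, a replicate block and each array left out; centring by chromosome was chosen after seeing the data. The main fit did not pair cultures by replicate letter, as the labels describe no pairing. Protein sequences were not used here.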

Additional observations from a re-analysis of the deposited data

How the results depend on the processing

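The calls of Mt2, Slc39a4, Slc39a10 and Map2k4 held in all 17 alternative settings, and those of Mt1 and Slc30a1 in 16. Most settings use the same probe set of a gene, so they say little about its other probe sets. The Mt1 call was lost without its multi-transcript probe set, and the Slc30a1 call with its probe sets averaged. The called members numbered 4 to 7 over all settings. Over all genes the count was 2139 as reported and 1127 with no trend in the prior variance; it was 1667, 1152 and 1257 without shRNA cultures A, B and C, and 1541, 1346 and 1312 without control cultures A, B and C. The members' count was 5 to 6 when arrays were left out. In fits over probe sets, the Mt2 probe set and the brighter Mt1 one were called in all 13 alternative settings that held them. The dimmer Mt1 probe set was called in none of the 12 that held it. The labels describe no pairing of cultures by replicate letter. Same-letter deviations correlated at -0.03, -0.01 and -0.11 for A, B and C, which cannot decide the question with 3 arrays per group. With the replicate block 1206 genes and the same 5 members were called.

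Some members that were not called changed sign. With all probe sets averaged, Mtf1 gave -0.091, Slc39a3 0.041 and Slc39a8 0.12, and with chromosome centring, chosen after seeing the data, Slc30a8 gave -0.035. Leaving out arrays in turn, log2 changes ran from -0.10 to 0.0053 for Mt3, from -0.053 to 0.039 for Slc30a3, from -0.0092 to 0.063 for Slc30a8, from -0.22 to 0.12 for Slc39a3, from -0.038 to 0.061 for Slc39a9 and from -0.11 to 0.30 for Slc39a12. The signs of these genes are therefore not settled, and none was called in any of these settings. Signal over background limits Mt4, Slc30a8, Slc39a2, Slc39a5, Slc39a8, Slc39a12 and the second Mt1 probe set; the causes of the changes were not tested.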
